A study of Homo sapiens with 15 samples.

Results

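This account covers 10 integrin subunit genes in the triple-negative breast cancer line CAL51 and its doxorubicin-resistant derivative CALDOX. The genes are ITGA2, ITGA3, ITGA5, ITGA6, ITGAV, ITGB1, ITGB4, ITGB5, ITGB6 and ITGB8, and a probe set was taken for a gene when its only gene symbol was that gene's. By this rule 9 of the 10 genes were measured, by 28 of 54675 probe sets, among 19775 genes in all. The 4 probe sets of ITGB6 each carry a second gene's symbol, so ITGB6 is not analysed here.

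Total RNA from 3 independent cultures of each of 5 groups was hybridized to Affymetrix arrays, 15 in all. The groups were untreated CAL51, CAL51 kept in 0.4 µM doxorubicin for 24 h or for 48 h, untreated CALDOX, and CALDOX grown drug-free over 3 passages and then given 4 µM doxorubicin for 24 h. Doxorubicin is an anthracycline that poisons topoisomerase II and breaks DNA. CALDOX was selected by long growth of CAL51 in 0.4 µM doxorubicin, and it is a single derived line, so resistance, selection and drift cannot be told apart. Doses and exposure times differed between the lines. The sources used here do not say whether untreated CALDOX was still in drug when harvested.

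Integrins are heterodimers of an alpha and a beta chain that hold a cell to its matrix and signal through kinases and the actin cytoskeleton. The chains combine selectively: ITGA2, a collagen receptor chain, and ITGA3, which binds laminins, pair with ITGB1, as does the fibronectin receptor chain ITGA5. ITGA6 binds laminins with ITGB1 or ITGB4, and with ITGB4 it forms the core of hemidesmosomes in epithelia. ITGAV pairs with ITGB1, ITGB5, ITGB6 or ITGB8 to bind ligands with an RGD motif, and its dimer with ITGB8 is known for binding latent TGF-beta.

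ITGA6, ITGB8 and ITGAV had the widest ranges of group means among the 9 genes. The 250 bases upstream of the most upstream start of each are shown because these genes differed most between the groups. The sequences are from RefSeq, build GRCh38.p14, on the plus strand, at chr2:172427086-172427335 for ITGA6, chr2:186589806-186590055 for ITGAV and chr7:20330650-20330899 for ITGB8. Capitals mark matches on either strand to a GC box (GGGCGG), an AP-1 site (TGACTCA) or a TATA box (TATAAA).
ITGA6: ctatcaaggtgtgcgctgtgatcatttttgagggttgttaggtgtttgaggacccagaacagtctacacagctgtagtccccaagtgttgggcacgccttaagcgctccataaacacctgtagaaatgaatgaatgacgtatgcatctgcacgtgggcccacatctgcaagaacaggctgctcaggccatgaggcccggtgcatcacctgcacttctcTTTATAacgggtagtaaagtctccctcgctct
ITGAV: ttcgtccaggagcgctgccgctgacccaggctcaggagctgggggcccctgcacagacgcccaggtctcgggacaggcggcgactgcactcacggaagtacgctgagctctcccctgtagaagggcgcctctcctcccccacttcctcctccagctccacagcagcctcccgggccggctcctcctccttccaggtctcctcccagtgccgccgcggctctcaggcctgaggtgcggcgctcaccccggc
ITGB8: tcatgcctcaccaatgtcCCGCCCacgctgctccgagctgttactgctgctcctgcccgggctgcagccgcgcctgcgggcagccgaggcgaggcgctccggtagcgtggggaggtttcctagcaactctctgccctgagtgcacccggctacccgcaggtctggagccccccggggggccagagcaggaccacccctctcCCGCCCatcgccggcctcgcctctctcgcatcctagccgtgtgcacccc
The ITGA6 window held 1 TATA box match, on the minus strand, and no GC box, and its GC content was 50.8%. The ITGB8 window held 2 GC box matches and had a GC content of 71.2%. The ITGAV window, at 70.8% GC, held none of the 3 motifs. Over 27305 RefSeq windows of the same length, 42.2% held a GC box, 4.15% an AP-1 site and 11.2% a TATA box, and the median GC content was 57.6%. These matches describe the letters of the windows only. Of the 10 genes, 8 were in the promoter table, and ITGA3 and ITGB4 were not.

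Values are log2 intensities, and each gene is represented by its brightest probe set. A level of 1 probe set cannot be set against that of another, so levels are compared only within a gene. Arrays of the same group correlated at Pearson r from 0.99286 to 0.9978 over all probe sets. CDKN1A, the cyclin-dependent kinase inhibitor induced by p53, rose by 1.98 ± 0.07 (log2, SE) at 24 h and 2.54 ± 0.07 at 48 h in CAL51, and by 1.11 ± 0.07 in treated CALDOX. The lines did not start level, as CDKN1A was higher in untreated CALDOX than in untreated CAL51 by 1.35 ± 0.07. Markers were set against the median gene (7.77) as a rough guide only, since probe sets differ in brightness. Of 5 epithelial markers, 4 lay above it, as did 4 of 6 mesenchymal and 3 of 5 fibroblast markers. Of 4 blood cell markers tested, 3 lay below it and 1 above. Triple-negative tumours lack the proteins of ESR1, PGR and ERBB2; of these 3 genes, 1 lay below the median gene on the arrays.

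A gene was called higher or lower where the moderated test of limma gave a Benjamini-Hochberg adjusted p under 0.05 over all 19775 genes, with n = 3 arrays a group. In these cultures, more cells carrying an RNA and more RNA per cell cannot be told apart. In untreated CALDOX against untreated CAL51, 3 of the 9 integrin genes were higher and 3 were lower. Among all genes 25.9% were called, 14.2% higher and 11.7% lower. The median difference of the 9 genes was 0.07, against 0.0034 for all genes tested.

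ITGA6, the laminin-binding alpha chain, separated the lines most among the 9 genes. It was 8.94, 8.51 and 8.60 in untreated CAL51 and 10.32, 10.60 and 10.40 in untreated CALDOX. In CAL51 it was 8.92, 8.82 and 9.16 after 24 h and 9.08, 9.05 and 9.25 after 48 h, and in treated CALDOX 10.18, 10.52 and 10.28. Every CALDOX array lay above every CAL51 array, treated or not. The difference between the untreated lines was 1.76 ± 0.12, or 3.38-fold (limma adjusted p = 1.3e-08), and the second ITGA6 probe set gave 1.30 ± 0.08 (adjusted p = 1e-09 over all probe sets). ITGA3, the other laminin-binding alpha chain, rose as well. It was 7.16, 7.45 and 7.41 in untreated CAL51 and 7.71, 7.57 and 7.68 in untreated CALDOX. The arrays of the lines did not overlap, and the difference was 0.31 ± 0.08 (adjusted p = 0.0086; 0.052 without CAL51 array 1). ITGB4, the beta chain of hemidesmosomes, was 7.65, 7.80 and 7.96 in CAL51 and 8.03, 8.02 and 7.99 in CALDOX. Its difference was 0.21 ± 0.07 (adjusted p = 0.048). Leaving out any of 11 of the 15 arrays ended that call, among them all 3 of untreated CALDOX and arrays 1 and 2 of untreated CAL51, and without CAL51 array 1 the difference was 0.13 (adjusted p = 0.23).

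**Figure D1:**
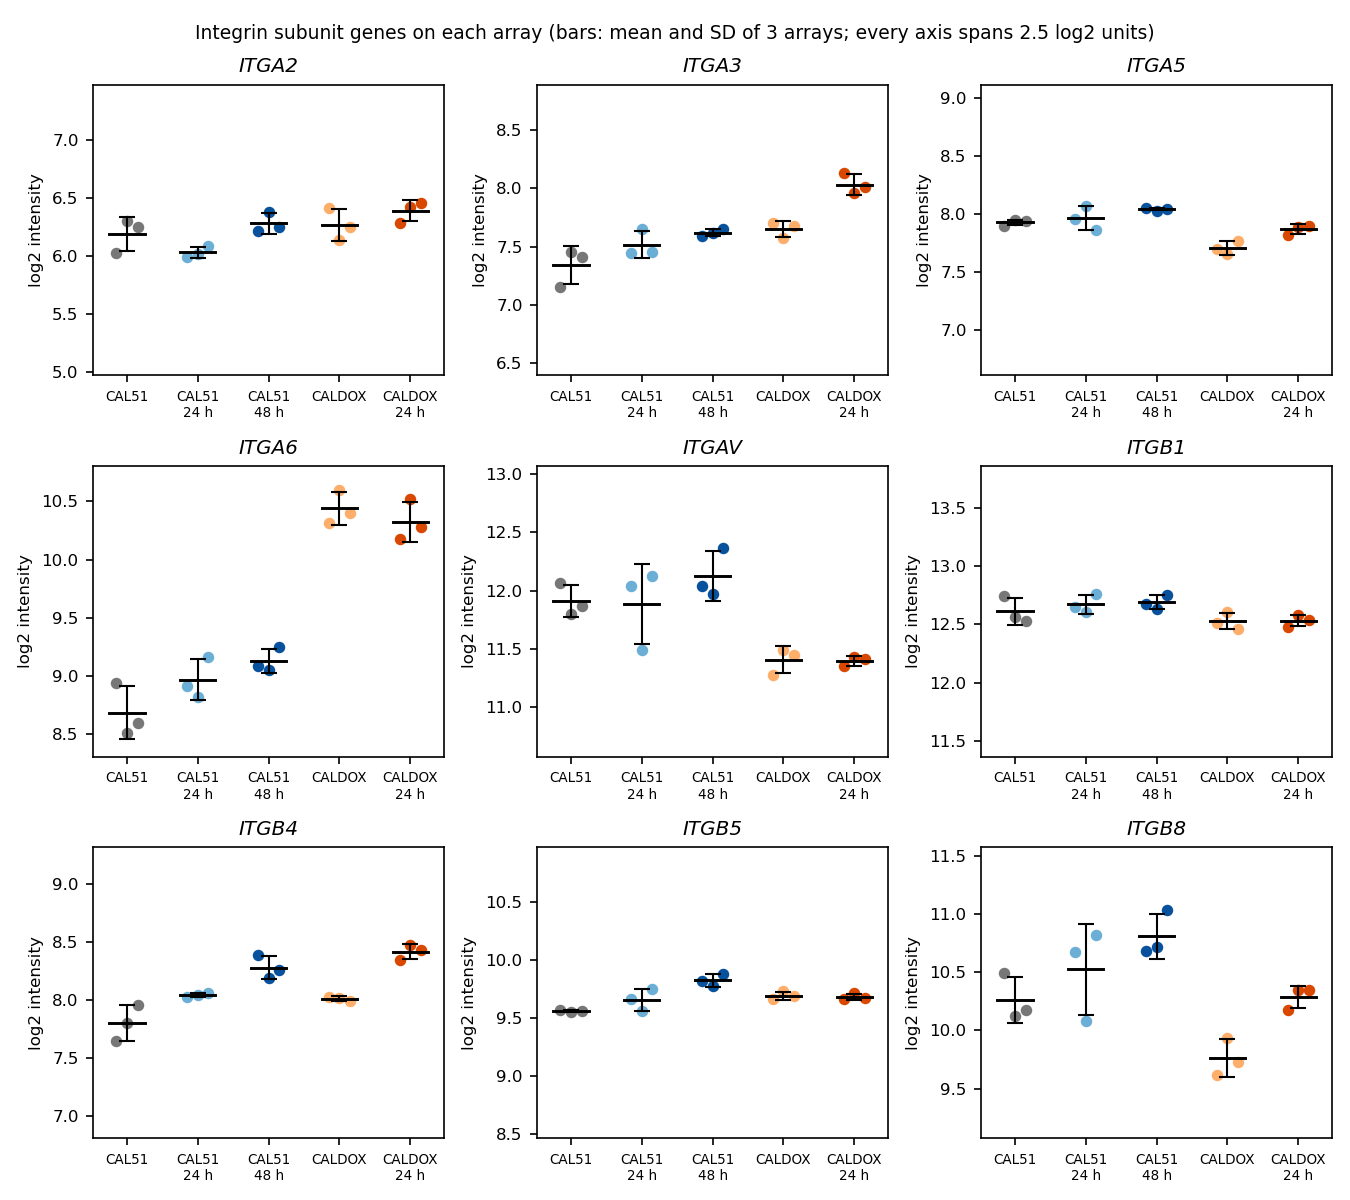
Log2 intensity of the 9 integrin subunit genes on each of the 15 arrays, with the mean and SD of the 3 arrays of a group; every axis spans 2.5 log2 units, and levels are to be read within a panel only. All 6 CALDOX arrays lie above all 9 CAL51 arrays for ITGA6, and ITGB8 is lowest in untreated CALDOX.

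The genes that were lower in CALDOX were the alpha chains of the fibronectin and RGD receptors and ITGB8. ITGAV was 12.06, 11.80 and 11.87 in untreated CAL51 and 11.27, 11.49 and 11.45 in untreated CALDOX. These arrays did not overlap, and the difference was -0.51 ± 0.14 (adjusted p = 0.011), or 1.42-fold lower. ITGB8, which pairs with ITGAV, was 10.49, 10.13 and 10.17 in CAL51 and 9.61, 9.94 and 9.73 in CALDOX. It too did not overlap between the lines, with a difference of -0.50 ± 0.16 (adjusted p = 0.027). ITGA5 was 7.90, 7.95 and 7.94 in CAL51 and 7.70, 7.65 and 7.77 in CALDOX, a difference of -0.22 ± 0.06 (adjusted p = 0.011). These 3 calls depended on single arrays. ITGAV was lost without array 1 of untreated CAL51 (adjusted p = 0.057) or array 1 of untreated CALDOX (0.056), and ITGA5 without array 2 of untreated CALDOX (0.052). ITGB8 was lost without array 1 of CAL51 (0.12), or array 1 (0.11) or array 3 (0.075) of CALDOX. With all arrays, 0 of the 5 ITGB8 probe sets were higher in CALDOX, and 3 were called lower over all probe sets. The count of called integrin genes was 2 without array 1 of untreated CAL51 and 3 without array 1 of untreated CALDOX.

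ITGB1, the chain shared by most of these receptors, was 12.75, 12.57 and 12.53 in CAL51 and 12.51, 12.60 and 12.46 in CALDOX. The arrays overlapped, and the difference was -0.09 ± 0.07 (95% interval -0.23 to 0.06). ITGB5, another partner of ITGAV, was 9.57, 9.55 and 9.56 in CAL51 and 9.66, 9.73 and 9.68 in CALDOX. Its arrays did not overlap, but the difference of 0.13 ± 0.06 was not called (adjusted p = 0.12); the second brightest of its 4 probe sets was called higher, by 0.21 ± 0.06 (adjusted p = 0.029). The collagen receptor chain ITGA2 differed by 0.07 ± 0.08 on its brightest probe set (adjusted p = 0.61). Its second, dimmer probe set rose by 0.54 ± 0.10 (adjusted p = 0.00069), so the result for ITGA2 depended on the probe set. Across the 9 genes, the arrays of the untreated lines did not overlap for 7, against 36.9% of all genes.

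Markers of cell state moved with this comparison. The mean of the 6 mesenchymal markers was 8.69 to 8.72 on the untreated CAL51 arrays and 8.23 to 8.30 on the untreated CALDOX arrays, and 3 of 6 fell, among them VIM, the intermediate filament vimentin (-1.72 ± 0.07). SNAI2, a mesenchymal transcription factor, was the dimmest of the 6, at 4.11 to 4.24 in the group means. Of the 6 mesenchymal markers, 4 lay above the median gene. The mean of 5 epithelial markers was 10.46 to 10.52 and 11.02 to 11.09. Of these, 2 rose and 3 fell: the keratin KRT19 rose by 4.76 ± 0.07, while CDH1, or E-cadherin, fell by 1.35 on the log2 scale. Of 5 fibroblast markers, 2 fell (COL1A2 and the growth factor receptor PDGFRB) and none rose, with list means of 8.34 to 8.40 in CAL51 and 7.61 to 7.68 in CALDOX. LUM, a defining fibroblast gene, was the dimmest of the 5, at 3.82 to 3.99 in every group mean. Of the 5 fibroblast markers, 3 lay above the median gene. The part of these shifts in the integrin differences was not tested.

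In CAL51 after 24 h in 0.4 µM doxorubicin, limma called 0 of the 9 integrin genes, against 10.1% of all genes (5.77% higher and 4.34% lower); 3 of 9 had an unadjusted p under 0.05. The nearest to the threshold was ITGB4, at 8.03, 8.04 and 8.06 against 7.65, 7.80 and 7.96 untreated. Its arrays did not overlap, as for 23.3% of all genes, and the difference was 0.24 ± 0.07 (adjusted p = 0.051). For ITGA6 the difference was 0.28 ± 0.12 (adjusted p = 0.17), and for ITGA3 0.17 ± 0.08 (adjusted p = 0.23). ITGB8 was uneven at this time, with 10.67, 10.08 and 10.82, so that array 2 lay below every untreated array. The same array was the lowest of all CAL51 arrays for ITGAV, at 11.49. Its values also had the narrowest spread at 24 h, with an interquartile range of 2.54 against 2.60 and 2.67. In every group the array of widest spread was the highest, ties included, for ITGA6, ITGAV, ITGB1, ITGB5 and ITGB8. The other integrin genes did not show this in every group. What part array spread had in single-array values was not tested. On the brightest probe set ITGB8 differed by 0.26 ± 0.16 (adjusted p = 0.37), and by 0.11 to 0.48 when 1 array was left out. Without array 2 at 24 h it was called higher (0.48, adjusted p = 0.025), and 3 of its 5 probe sets were called higher with all arrays.

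After 48 h, 5 of the 9 integrin genes were higher than in untreated CAL51 and none was lower, where 21.6% of all genes were called, 10.5% higher and 11.2% lower. All 9 differences were above 0, with a median of 0.26 against -0.02 for all genes. The arrays of 6 of the 9 genes did not overlap, against 33.6% of all genes. ITGB4 was 8.38, 8.19 and 8.26 after 48 h, all above the untreated arrays. It rose by 0.47 ± 0.07, or 1.39-fold (adjusted p = 0.00019), a call that held without any 1 of the 15 arrays (adjusted p at most 0.0015). Of its 5 probe sets, only the brightest was called.

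The alpha chains ITGA6 and ITGA3, which bind laminins, rose at 48 h as well. ITGA6 rose by 0.45 ± 0.12 (adjusted p = 0.014), while its second probe set, at 0.19 ± 0.08, was not called (adjusted p = 0.12). ITGA3 was 7.59, 7.62 and 7.65, and rose by 0.28 ± 0.08 (adjusted p = 0.022). ITGB5 was 9.82, 9.77 and 9.88, above its untreated arrays, and rose by 0.26 ± 0.06 (adjusted p = 0.0032). The mean of its 4 probe sets gave 0.06 (adjusted p = 0.49), so the call rested on the brightest probe set. ITGB8 was 10.68, 10.72 and 11.03, again above all untreated arrays, and rose by 0.55 ± 0.16, or 1.46-fold (adjusted p = 0.02). Its 5 probe sets all gave higher values at 48 h, and 4 of them were called.

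The ITGA6 and ITGB8 calls at 48 h were lost without array 2 or 3 of untreated CAL51 or array 3 at 48 h. For ITGA6 these gave adjusted p of 0.075, 0.056 and 0.058, and for ITGB8 0.083, 0.070 and 0.087. The count of called genes was then 3, 3 and 2. ITGA3 was lost without array 1 of untreated CAL51 (adjusted p = 0.12) or without array 2 (0.052) or array 3 (0.061) at 48 h. ITGAV differed by 0.22 ± 0.14, ITGA5 by 0.12 ± 0.06, ITGB1 by 0.08 ± 0.07 and ITGA2 by 0.09 ± 0.08, none past the threshold. For ITGB1 the 95% interval ran from -0.07 to 0.22.

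Epithelial markers moved with the drug in CAL51. Their list mean was 10.46 to 10.52 on the untreated arrays, 10.88 to 11.15 at 24 h and 11.41 to 11.59 at 48 h. At 24 h 3 of the 5 were called higher, and at 48 h all 5, among them KRT19 (2.09 ± 0.07) and CDH1 (1.47 ± 0.15). In CALDOX the list mean was 11.02 to 11.09 untreated and 11.18 to 11.29 in drug, with 2 of 5 called higher. Their part in the integrin differences was not tested.

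Between 24 h and 48 h, limma called 0 of the 9 genes, against 9.71% of all genes (4.37% higher and 5.34% lower), and 3 had an unadjusted p under 0.05. On the brightest probe sets the differences of all 9 were above 0, and the lowest adjusted p was 0.058, for ITGB4 at 0.23 ± 0.07. For ITGB8, only 3 of 5 probe sets were higher at 48 h, and 1 was called lower. That was its dimmest, with means of 6.78 at 24 h and 6.27 at 48 h. The arrays of 3 of the 9 genes, ITGA2, ITGB4 and ITGB5, did not overlap between the times, against 23.1% of all genes. ITGA2 was 5.99, 6.02 and 6.08 at 24 h and 6.21, 6.38 and 6.25 at 48 h, a difference of 0.25 ± 0.08 (adjusted p = 0.079).

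**Figure D2:**
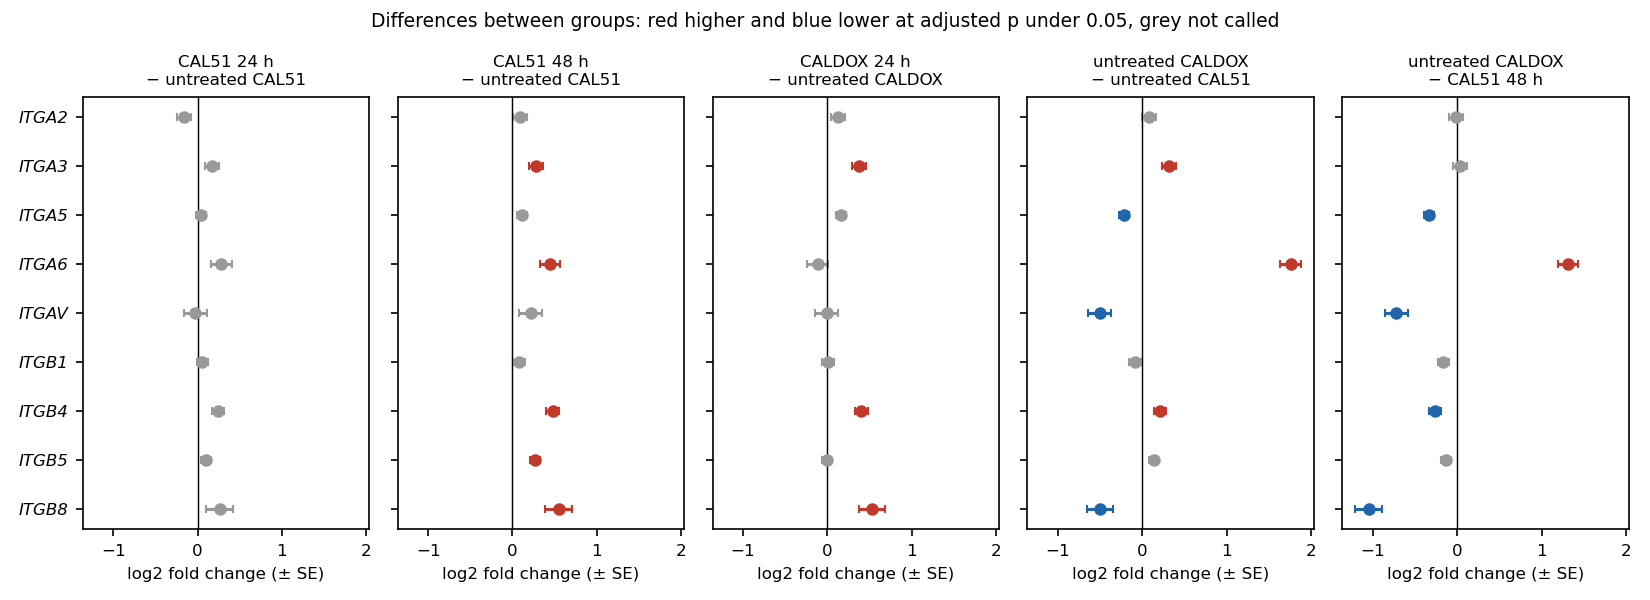
Log2 fold change with its standard error for the 9 integrin subunit genes in 5 comparisons, red where higher and blue where lower at an adjusted p under 0.05. ITGB4, ITGA3 and ITGB8 are higher after drug in CAL51 at 48 h and in CALDOX, while ITGA6 stands apart between the lines.

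In CALDOX after 24 h in 4 µM doxorubicin, 3 of the 9 genes were higher and 0 lower, against 10.3% of all genes called, 4.82% higher and 5.5% lower. The median difference was 0.12, against -0.01 for all genes. ITGA3 was 8.13, 7.96 and 8.01, above all untreated CALDOX arrays, and rose by 0.38 ± 0.08, or 1.30-fold (adjusted p = 0.0063). ITGB4 was 8.34, 8.47 and 8.43, also above them, and rose by 0.40 ± 0.07, or 1.32-fold (adjusted p = 0.0019). Both calls held without any 1 array. For ITGB4 only the brightest of 5 probe sets was called, and the mean of all 5 gave 0.21 (adjusted p = 0.029). ITGB8 was 10.17, 10.34 and 10.34, above its untreated CALDOX arrays and within the range of untreated CAL51. It rose by 0.53 ± 0.16 (adjusted p = 0.045), but 9 of the 15 arrays each ended that call when left out, all 3 of treated CALDOX among them, with an adjusted p of up to 0.16. Of its 5 probe sets 2 were called at this time over all probe sets, both higher, and the brightest was not among them.

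ITGA6, which was high in CALDOX, differed by -0.12 ± 0.12 with the drug (95% interval -0.37 to 0.14), ITGAV by -0.01 ± 0.14 and ITGB5 by -0.01 ± 0.06. ITGA5 was 7.82, 7.89 and 7.90 in treated CALDOX, above the untreated arrays, and its difference of 0.16 ± 0.06 was not called (adjusted p = 0.11). The arrays of 4 of the 9 genes did not overlap, against 30.8% of all genes.

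The 24 h responses of the lines were compared directly, with a dose of 4 µM in CALDOX and 0.4 µM in CAL51. Limma called 0 of the 9 integrin genes, against 1.43% of all genes (0.576% higher and 0.855% lower), and 2 had an unadjusted p under 0.05. Those were ITGA2, with a response higher in CALDOX by 0.28 ± 0.12, and ITGA6, with one lower by -0.40 ± 0.17, both at an adjusted p of 0.37. For ITGB4, called in CALDOX and not in CAL51 at 24 h, the difference between the responses was 0.16 ± 0.10 (95% interval -0.06 to 0.39), so the lines were not shown to differ. The interval for ITGB8 was -0.21 to 0.74.

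Untreated CALDOX was also set against CAL51 after 48 h in drug. Of the 9 genes 1 was higher and 4 lower, against 28.2% of all genes called, 16.3% higher and 11.8% lower. This comparison shares arrays with the ones above. ITGA6 was higher in CALDOX by 1.31 ± 0.12, or 2.48-fold (adjusted p = 3.9e-07). ITGB8 was lower by 2.07-fold (-1.05 ± 0.16, adjusted p = 7.7e-05), and all 5 of its probe sets were called lower. ITGAV differed by -0.72 ± 0.14 (adjusted p = 0.00073) and ITGA5 by -0.33 ± 0.06 (adjusted p = 0.00039).

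These 4 calls held without any 1 array. ITGB4 was lower in CALDOX here, by -0.27 ± 0.07 (adjusted p = 0.012), whereas it was higher than in untreated CAL51; the call was lost without array 1 of CAL51 at 48 h (0.068). ITGA3 differed by 0.03 ± 0.08 (95% interval -0.14 to 0.21) and ITGB1 by -0.16 ± 0.07 (adjusted p = 0.097). For ITGB1, 2 of 7 probe sets were called lower, and 5 of 24 alternative settings called the gene lower (lowest adjusted p = 0.013). The arrays of 7 of the 9 genes did not overlap, against 38.6% of all genes.

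Ordered by group mean, the genes fell into different patterns. ITGA6 rose from untreated CAL51 (8.68 ± 0.23, SD, n = 3) over CAL51 at 24 h (8.96 ± 0.18) and 48 h (9.13 ± 0.11) to treated (10.32 ± 0.17) and untreated CALDOX (10.44 ± 0.14). Only the step between CAL51 at 48 h and treated CALDOX separated the arrays of neighbours. ITGB8 ran from untreated CALDOX (9.76 ± 0.17) over untreated CAL51 (10.26 ± 0.20), treated CALDOX (10.29 ± 0.10) and CAL51 at 24 h (10.52 ± 0.39) to CAL51 at 48 h (10.81 ± 0.19). Here only the lowest group stood clear of its neighbour. ITGB4 was lowest in untreated CAL51 (7.80 ± 0.15) and highest in treated CALDOX (8.42 ± 0.06), and its arrays separated after the lowest group and between CAL51 at 24 h (8.04 ± 0.02) and at 48 h (8.28 ± 0.10). ITGB1 had the narrowest range of group means, 0.16, and none of its neighbouring groups separated.

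**Figure D3:**
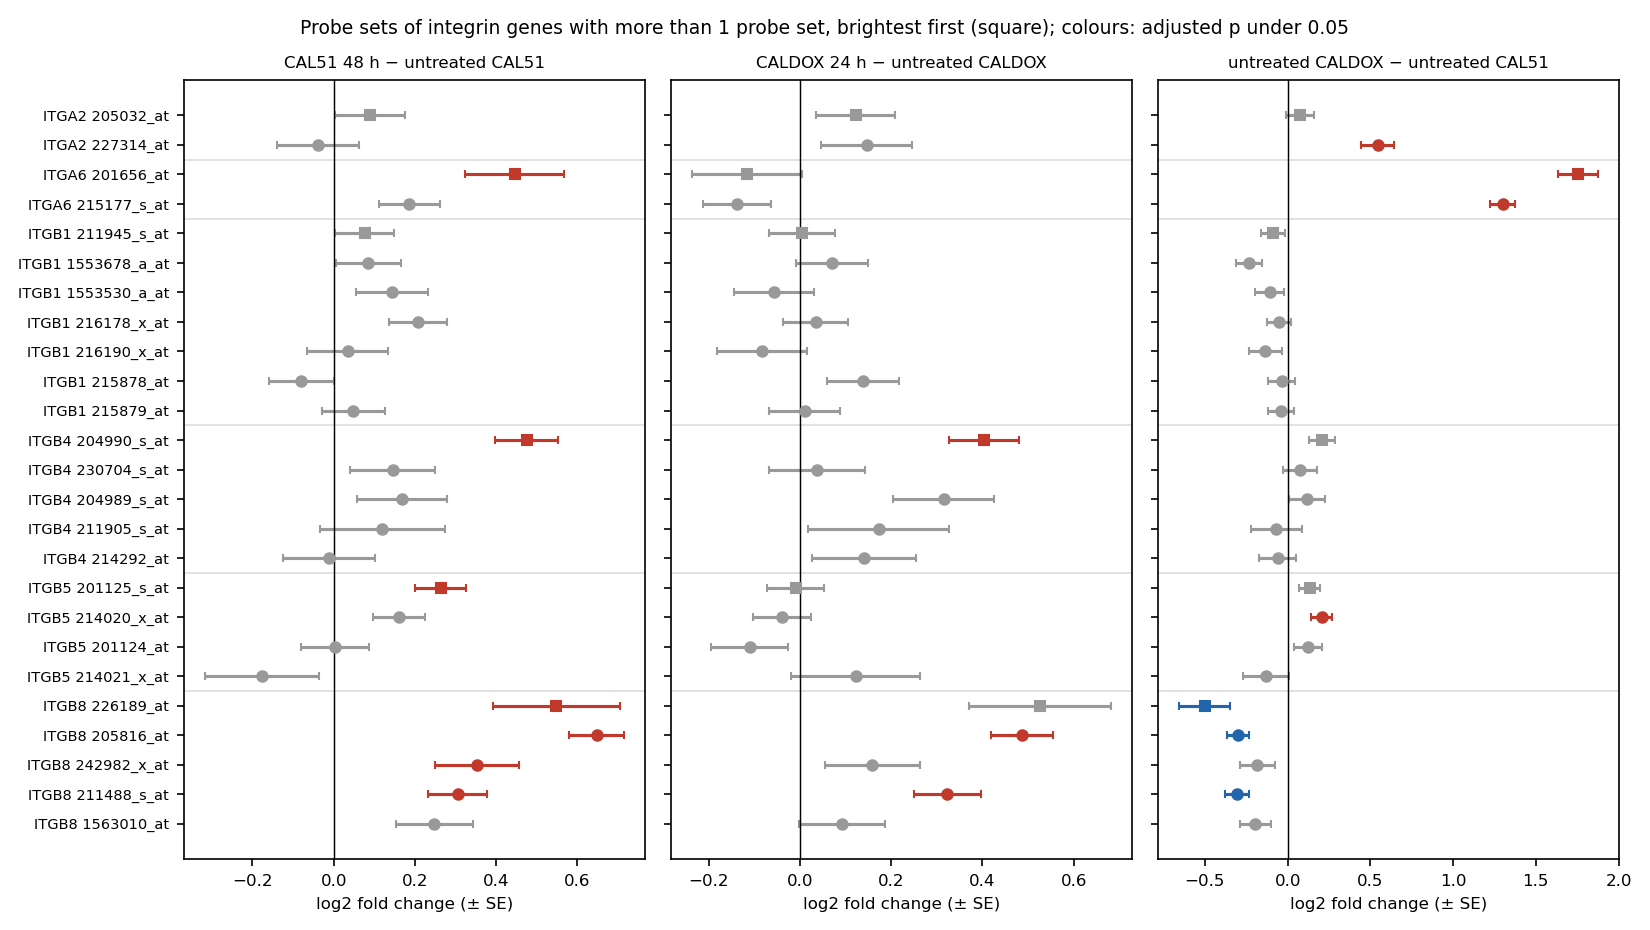
Log2 fold change with its standard error for each probe set of the 6 integrin genes that have more than 1, in 3 comparisons, with the brightest probe set as a square and colours for an adjusted p under 0.05 over all probe sets, which leaves ITGB4 grey between the lines. The 5 ITGB8 probe sets lie above 0 after drug in both lines and below 0 in CALDOX, while both of ITGA2 lie above 0 between the lines and only the dimmer one is called.

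Over the 15 arrays, the genes whose profile was most like that of ITGA6 were QDPR, CD2AP and DTX3L, with Pearson r of 0.989, 0.988 and 0.987. For ITGB8 they were ZBTB44, ATP6V0E1 and MBNL2 (0.969, 0.959 and 0.959), and for ITGAV PHACTR2, SCYL2 and FYTTD1 (0.972, 0.967 and 0.966). The 15 points fall into 5 groups and come from the same hybridizations, so these values are descriptions.

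Of the 16 other integrin subunits tested, 2 rose and 1 fell between the untreated lines, where 14.2% of all genes were higher and 11.7% lower: ITGA9, a partner of ITGB1, was 1.99-fold lower (adjusted p = 5.4e-06), and ITGAE, the alpha chain of an E-cadherin receptor, rose by 0.35 ± 0.08 (adjusted p = 0.0041). ITGA1, a collagen receptor chain, rose by 0.36 ± 0.13 (adjusted p = 0.048). In CAL51, ITGB3, a partner of ITGAV, was the only one called, by 0.22 ± 0.07 at 24 h and 0.21 ± 0.07 at 48 h, where 10.1% and 21.6% of all genes were called. In treated CALDOX limma called 0 of the 16, against 10.3% of all genes, and 2 had an unadjusted p under 0.05.

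The lists that follow are read against the same shares of all genes: 14.2% higher and 11.7% lower between the untreated lines, 10.5% and 11.2% in CAL51 at 48 h, and 4.82% and 5.5% in treated CALDOX. Of 9 laminin chains tested, which ITGA3 and ITGA6 bind, 2 rose between the untreated lines: LAMB1 by 0.75 ± 0.10 and LAMA5 by 0.36 ± 0.07. Of 15 fibronectin-like and other ligands, 6 rose and 3 fell in CALDOX. NPNT, or nephronectin, rose from 5.89 to 6.12 on the CAL51 arrays to 10.93 to 11.10 on the CALDOX arrays, by 4.99 ± 0.08, or 31.8-fold (adjusted p = 7.4e-16). FN1, the ligand of the ITGA5 receptor, rose 4.16-fold (2.06 ± 0.06). THBS1, a matrix glycoprotein that binds integrins, fell (-2.63 ± 0.10). In CAL51 at 48 h, 9 of these 15 rose and 2 fell, among the risers the osteopontin gene SPP1 (0.61 ± 0.09).

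Of 10 collagen chains, 3 rose and 3 fell between the untreated lines. COL5A2 (-4.75 ± 0.11) and COL1A2 (-2.36 ± 0.05), chains of fibrillar collagens, fell, and the basement membrane chain COL4A1 rose (0.58 ± 0.06). At 48 h in CAL51, 4 of the 10 rose and 0 fell, COL4A1 among them (0.62 ± 0.06). Of 9 other matrix receptors, 3 rose and 2 fell in CALDOX. CD44, the hyaluronan receptor, rose by 2.91 ± 0.09, from 8.32 to 8.48 on the CAL51 arrays to 11.25 to 11.34 on the CALDOX arrays, and in CAL51 it rose by 1.53 ± 0.09 at 48 h. DDR2, a collagen receptor kinase, fell between the lines (-0.92 ± 0.07).

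Focal adhesion proteins link integrins to actin. Of 27 of their genes tested, 13 fell and 0 rose in CALDOX, with a median of -0.16 against 0.0034 for all genes. TLN1, or talin, which binds beta chain tails, fell by 1.42 on the log2 scale (-1.42 ± 0.10, adjusted p = 9.2e-09). VCL, or vinculin (-1.17 ± 0.05), the adaptor TGFB1I1 (-1.16 ± 0.08) and FHL2 (-2.47 ± 0.15) fell as well. In CAL51 at 48 h, 3 of the 27 rose and 3 fell, TLN1 among the latter (-0.85 ± 0.10), near the share of all genes called, 21.6%. In treated CALDOX 6 rose and 0 fell. Beside ITGA6 and ITGB4, 5 genes listed with hemidesmosomes were tested: PLEC, DST, CD151 and the basal keratins KRT5 and KRT14. COL17A1, also listed, was not tested. Of these 5 genes limma called 0 between the untreated lines, and 0 had an unadjusted p under 0.05.

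**Figure D4:**
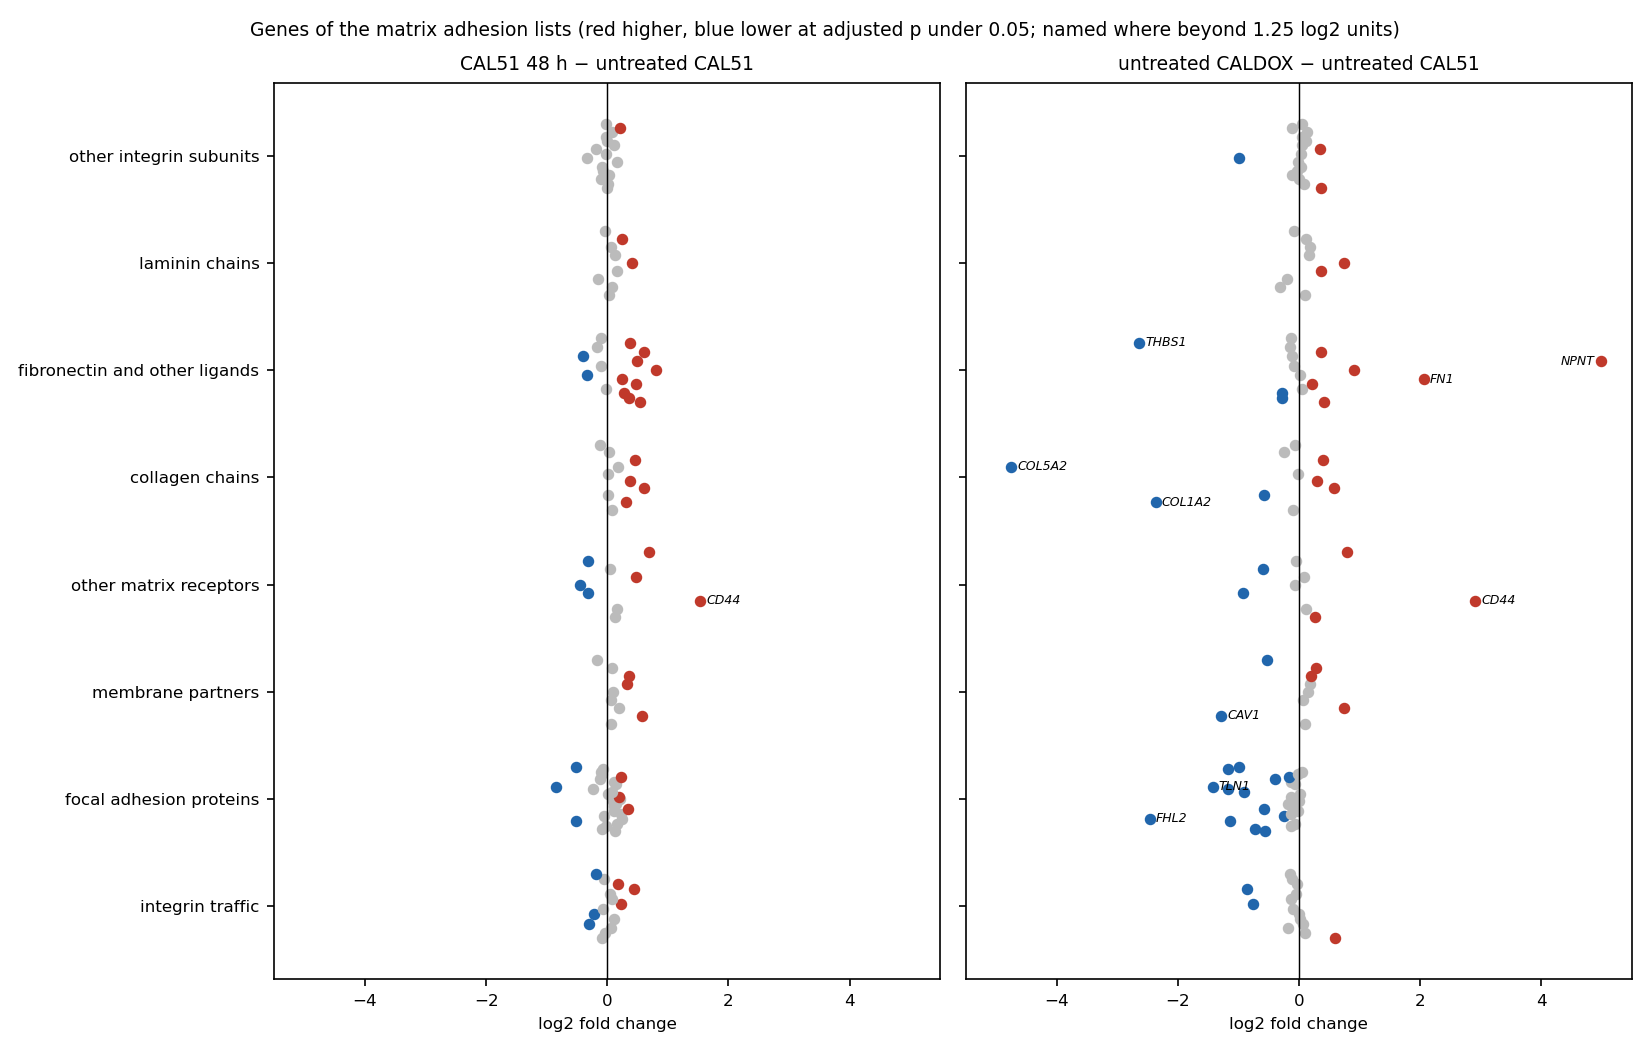
Log2 fold change of each tested gene in 8 lists of the adhesion machinery, for CAL51 at 48 h and for untreated CALDOX, each against untreated CAL51; red is higher and blue lower at an adjusted p under 0.05. Of 27 focal adhesion genes, 13 are called lower in CALDOX (blue), and NPNT, CD44 and FN1 lie farthest to the right.

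Of 12 genes for latent TGF-beta and its receptors, the pathway of the ITGAV and ITGB8 dimer, none rose and 2 fell between the untreated lines. These were NRROS, which tethers latent TGF-beta (-0.99 ± 0.09), and the receptor TGFBR2 (-0.61 ± 0.08). Of 9 membrane partners of integrins, 3 rose and 2 fell, with the caveolin CAV1 at -1.28 ± 0.06 and CD47 at 0.74 ± 0.11. Of 14 genes of integrin traffic and inactivation, ARF6, a small GTPase of endosome recycling, rose (0.59 ± 0.14), and RAB4A (-0.86 ± 0.07) and RAB11FIP1 (-0.76 ± 0.07) fell.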

How the data were processed

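The deposited log2 intensities cover 54675 Affymetrix probe sets. The submitters' processing notes name RMA, a method of background correction, quantile normalization and summary of probes, and the sources used here do not give its version. The log base is stated nowhere and was taken as log2 from the range of the deposited values, 3.083 to 14.76. Low signals keep some background, which understates fold changes of dim genes.

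Names of probe sets came from the platform annotation, which can be old: 41097 had 1 symbol, 1801 several and 11777 none, and all 10 integrin symbols were in the RefSeq gene table. After 62 control probe sets were left out, 41091 single-symbol probe sets remained, and each of 19775 genes was represented by the one with the highest mean over the 15 arrays. No filter on low values was applied. A mean for each of the 5 groups was fitted by lmFit and eBayes of limma 3.58.1 (R 4.3.3; 10 residual and 5.397 prior degrees of freedom), and 7 contrasts were tested two-sided, with Benjamini-Hochberg adjustment over all genes. Errors beside a difference are limma's standard errors, with n = 3 arrays a group; the number of arrays limits the precision. Probe sets of a gene were also tested one by one, adjusted over all probe sets.

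The integrin genes and the gene lists were chosen with earlier results of these data known. Of 178 distinct genes in the lists, 164 were tested. From each list, up to 4 genes with the largest difference in any contrast among those called were named, all integrin genes were named, and for the 3 with the widest range of group means the 3 other genes with the highest Pearson correlation over the arrays. SNAI2, LUM and ITGA8 were named outside this rule. Array numbers did not pair the samples: deviations of same-numbered arrays correlated at -0.462 to 0.458 (median 0.0018) and those of other numbers at -0.457 to 0.469. The fits were checked on simulated data with known changes. Alternatives were a replicate block, fits of only the arrays compared, a repeated quantile normalization, array spread as a covariate, array weights, an intensity trend, a filter on dim genes, the mean of all probe sets of a gene, adjustment over all probe sets, and leaving out each array.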

Additional observations from a re-analysis of the deposited data

Results flagged for a closer look

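The 24 h responses of the lines, CALDOX in 4 µM and CAL51 in 0.4 µM doxorubicin, were compared by the limma test of that difference. They differed for 1 of 28 integrin probe sets and for 10 of the 50 genes picked from the lists. Among all genes 1.43% were called. The 50 were picked for large called differences in any comparison, this one included, so their count cannot be read against that share. Outlying arrays were not tested for in these groups of 3. The dimmest of the 5 ITGB8 probe sets had a response lower in CALDOX by -0.66 ± 0.13 (adjusted p = 0.024 over all probe sets), while the brightest gave 0.26 ± 0.22 (adjusted p = 0.74 over all genes). Of 27 focal adhesion genes tested, TLN1 among them, 3 had a response higher in CALDOX and 0 a lower one. The shares of all genes were 0.576% and 0.855%. Among genes for the machinery around integrins, the response was higher in CALDOX for talin, TLN1 (0.97 ± 0.14, adjusted p = 0.0012), which fell in CAL51 (-0.68 ± 0.10) and gave 0.29 ± 0.10 in CALDOX (adjusted p = 0.07). It was also higher for fibronectin, FN1 (0.62 ± 0.08, adjusted p = 0.00055), which fell in CAL51 (-0.30 ± 0.06) and rose in CALDOX (0.32 ± 0.06). Caveolin, CAV1 (0.61 ± 0.08, adjusted p = 0.0011), and SLC3A2, the heavy chain of an amino acid transporter that binds beta chains (0.60 ± 0.09, adjusted p = 0.0035), had higher responses in CALDOX too. So did the latent TGF-beta binding protein LTBP1 (0.54 ± 0.09, adjusted p = 0.0057), the collagen receptor DDR2 (0.53 ± 0.10, adjusted p = 0.015) and the collagen chain COL1A2 (0.39 ± 0.08, adjusted p = 0.018). The response was lower in CALDOX for osteopontin, SPP1 (-0.69 ± 0.13, adjusted p = 0.01), for the keratin KRT19 (-0.83 ± 0.11, adjusted p = 0.00055) and for CDKN1A (-0.87 ± 0.10, adjusted p = 0.00027). For CDKN1A, untreated CALDOX was already above untreated CAL51, by 1.35 ± 0.07. The doses differ, so line and dose cannot be told apart in these differences of responses.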

How the results depend on the processing

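Of the 19 integrin results called, 8 kept their direction and their side of the threshold under all alternatives: ITGA6 in both comparisons between the lines (1.53 to 1.89 against untreated CAL51), ITGB4 in CAL51 at 48 h, ITGA3 and ITGB4 in treated CALDOX, and ITGA5, ITGAV and ITGB8 against CAL51 at 48 h. None of the 19 turned its direction. Over their 456 values, 48 missed the threshold. With the mean of probe sets ITGB4 was still called, at 0.18 in CAL51 at 48 h and 0.21 in treated CALDOX. Of 1049 values of the 44 results not called, 36 passed it in the same direction. The block by replicate number, which the pairing check did not support, gave 1787 genes for CAL51 at 24 h and 214 for the difference of responses, and it ended the calls of ITGB4 between the untreated lines (adjusted p = 0.064) and ITGB8 in treated CALDOX (0.050); 5 of 15 arrays correlated best with their own number. The cause of the changes below was not tested, beyond that fits of only the arrays compared use fewer arrays.

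The integrin count of CAL51 at 24 h was 1 with array spread as a covariate, array weights, an intensity trend, dim genes left out or the mean of probe sets. That of 48 h against 24 h was 3 with repeated quantile normalization, 4 with array spread, 2 with array weights, 1 with the trend, 2 without dim genes and 1 with the mean of probe sets. Genes called were 870 (24 h) and 565 (48 h against 24 h) with only the arrays compared, 3200 (24 h), 4961 (treated CALDOX) and 1231 (difference of responses) with array weights, whose estimation stopped before it converged, and, for the difference of responses, 487 with array spread and 464 with the trend, against 1999, 1920, 2041 and 283. With array spread the share of higher calls was 43.2% in place of 57.1% at 24 h and 50.7% in place of 40.3% for the difference of responses.

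Leaving out 1 array gave 1355 to 2117 genes at 24 h, 3507 to 4754 at 48 h, 1236 to 1951 for 48 h against 24 h, 4341 to 5550 between the untreated lines, 1341 to 2338 in treated CALDOX, 4682 to 5977 against CAL51 at 48 h and 161 to 353 for the difference of responses. The lowest counts for the last and for treated CALDOX came without array 1 of treated CALDOX, and that for 48 h against 24 h without array 1 at 48 h. The integrin counts were 0 to 1, 2 to 5, 0 to 1, 2 to 6, 2 to 3, 4 to 5 and 0 to 0 in the same order.

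Reversed values were all of results not called. With the mean of probe sets, ITGA2 against CAL51 at 48 h was 0.28 (adjusted p = 0.0042, called), ITGB5 was -0.042 at 24 h, 0.020 against CAL51 at 48 h and 0.032 for the difference of responses, and ITGB8 was -0.0056 for 48 h against 24 h and -0.11 for the difference of responses. With array weights ITGAV was 0.10 at 24 h and -0.14 for the difference of responses. With repeated quantile normalization ITGB1 was -0.0097 for 48 h against 24 h, and in treated CALDOX ITGAV was 0.0097 and ITGB5 0.0034. With array spread ITGAV was 0.022 in treated CALDOX and ITGB1 0.0072 for the difference of responses. Leaving out 1 array also turned 9 uncalled results, whose values ran from -0.016 to 0.088 (ITGA5) and -0.15 to 0.17 (ITGAV) at 24 h, -0.013 to 0.064 (ITGB1) for 48 h against 24 h, -0.0082 to 0.14 (ITGA2) between the untreated lines, -0.073 to 0.036 (ITGAV), -0.028 to 0.042 (ITGB1) and -0.025 to 0.0089 (ITGB5) in treated CALDOX, -0.087 to 0.048 (ITGA2) against CAL51 at 48 h, and -0.18 to 0.14 (ITGAV) for the difference of responses.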

Other observations

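The same deposited value stood on 2 or more arrays for 7488 of the 19775 genes (37.9%), 4 of the 9 integrin genes among them. ITGA2, for example, was 6.25 on array 3 of untreated CAL51, of CAL51 at 48 h and of untreated CALDOX.

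Beside the integrins, the tetraspanin CD9, which associates with them, rose in CAL51 at 24 h (0.25 ± 0.06, adjusted p = 0.018 by limma) and 48 h (0.36 ± 0.06, adjusted p = 0.00054). ITGB1BP1, which binds the tail of ITGB1, fell in CAL51 at 48 h (-0.31 ± 0.06, adjusted p = 0.0021) and in treated CALDOX (-0.34 ± 0.06, adjusted p = 0.0025). The syndecan SDC4, a co-receptor for fibronectin, rose by 0.47 ± 0.09 at 24 h and 0.69 ± 0.09 at 48 h in CAL51, and by 0.80 ± 0.09 between the untreated lines (adjusted p = 2.4e-06). NPNT is known as a ligand of the ITGA8 dimer with ITGB1, and ITGA8 differed by -0.02 ± 0.10 between the untreated lines (adjusted p = 0.92). ACTA2, a smooth muscle actin listed with basal markers, rose by 0.45 ± 0.07 in CAL51 at 48 h, while another of its probe sets fell by 0.39 on the log2 scale (adjusted p = 0.024), the only such conflict among 178 called results of genes named from the lists.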
